A study of Mus musculus with 4 samples.

Results

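Open chromatin around 6 lymphoid lineage genes, Rag1, Rag2, Dntt, Pax5, Cd79b and Blk, was compared between pDC and cDC1 of the mouse. The members were every distinct peak interval and every footprint that overlapped 1 of 5 windows in mm9 coordinates: chromosome 2 from 101.43 to 101.53 Mb for Rag1 and Rag2 together, chromosome 19 from 41.06 to 41.16 Mb for Dntt, chromosome 4 from 44.50 to 44.76 Mb for Pax5, chromosome 11 from 106.15 to 106.20 Mb for Cd79b and chromosome 14 from 63.95 to 64.06 Mb for Blk. The windows held 38 of 51941 pDC intervals and 40 of 83701 cDC1 intervals. When overlapping intervals of the pDC and cDC1 lists were joined, these made 52 of 93615 regions. They also held 199 of 312959 pDC footprints and 241 of 513689 cDC1 footprints.

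In Omni-ATAC-seq the Tn5 transposase cuts and tags accessible DNA, and the assay was applied to dendritic cells grown from mouse bone marrow in a culture with 2 steps, the second of them with Flt3 ligand. The pDC were sorted as CD11c+ CD11b- B220+ cells and the cDC1 as CD11c+ CD11b+ XCR1+ cells, with 2 replicate samples of each. The authors merged the replicates, so each cell type had 1 peak list and 1 footprint list, no value had a replicate error and no test was made. A region listed weakly or not at all may be closed in most cells of a type or less open in each of them, and these cannot be told apart in sorted bulk cells. Whether other cells in the sort took part in a value was not tested, because marker genes could not be placed on mm9 intervals here.

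Rag1 and Rag2 are the subunits of the recombinase that cuts antigen receptor genes in developing B and T cells, and Dntt encodes terminal deoxynucleotidyl transferase, which adds bases without a template where the cut ends are joined. Pax5 is the transcription factor that commits progenitors to the B cell lineage. Cd79b is the Ig-beta signalling chain of the B cell receptor, and Blk is a kinase of the Src family found in B cells. pDC, which secrete type I interferon, are known to share parts of the lymphoid programme, whereas cDC1 present antigen taken up from other cells. Transcript levels of these genes were not analysed here.

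Each window also covers ground between neighbouring genes. In the RefSeq annotation of GRCm38.p6, used here for gene order only, Rag2 and Rag1 lie side by side between Iftap and Traf6, Dntt lies next to Opalin with Blnk farther off, Pax5 lies near Melk, Cd79b lies between Gh and Scn4a, and Blk lies next to Fam167a. The intervals could not be set against exons or start sites, since the reference at hand was of another build, so a region is described by its window and not assigned to a gene. A promoter from RefSeq was matched for 4 of the 6 genes, Rag1, Rag2, Dntt and Pax5. They are shown as the reference sequence at the start of genes whose surroundings were measured, and their GRCm38.p6 positions cannot be set beside the mm9 intervals. Each runs 5′ to 3′ on the strand of the gene, from 250 bases before its start to 50 after it. The Rag1 promoter is chr2:101649483-101649782 on the minus strand, that of Rag2 chr2:101624462-101624761 on the plus strand, that of Dntt chr19:41029025-41029324 on the plus strand and that of Pax5 chr4:44710645-44710944 on the minus strand. Capitals mark E-boxes, CANNTG, the short motif read by the E proteins that act in B lymphoid cells and in pDC.

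Rag1: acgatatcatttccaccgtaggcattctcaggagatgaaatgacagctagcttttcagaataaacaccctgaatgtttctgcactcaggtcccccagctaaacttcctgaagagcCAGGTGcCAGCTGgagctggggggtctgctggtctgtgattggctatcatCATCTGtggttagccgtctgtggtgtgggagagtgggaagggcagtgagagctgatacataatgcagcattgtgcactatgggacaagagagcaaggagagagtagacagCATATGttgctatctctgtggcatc
Rag2: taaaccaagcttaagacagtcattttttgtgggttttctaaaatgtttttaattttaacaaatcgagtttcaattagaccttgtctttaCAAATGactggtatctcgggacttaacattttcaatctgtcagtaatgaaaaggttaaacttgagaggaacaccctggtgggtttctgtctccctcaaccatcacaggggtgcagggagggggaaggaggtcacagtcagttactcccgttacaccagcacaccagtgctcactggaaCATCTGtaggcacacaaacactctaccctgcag
Dntt: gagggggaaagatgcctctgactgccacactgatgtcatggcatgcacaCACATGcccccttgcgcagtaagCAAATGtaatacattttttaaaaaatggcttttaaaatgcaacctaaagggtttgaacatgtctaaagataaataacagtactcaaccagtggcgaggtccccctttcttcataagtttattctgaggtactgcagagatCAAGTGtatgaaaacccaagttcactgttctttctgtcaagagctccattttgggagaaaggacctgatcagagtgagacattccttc
Pax5: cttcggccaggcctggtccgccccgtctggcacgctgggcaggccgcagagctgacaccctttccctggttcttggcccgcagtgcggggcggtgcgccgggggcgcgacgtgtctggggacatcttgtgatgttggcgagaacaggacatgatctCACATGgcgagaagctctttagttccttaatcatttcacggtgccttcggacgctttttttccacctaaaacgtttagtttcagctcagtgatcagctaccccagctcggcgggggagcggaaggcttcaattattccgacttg

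The Rag1 promoter held 4 E-boxes, of which 1 was CAGGTG, and the Dntt promoter held 3. The Rag2 promoter held 2 and the Pax5 promoter 1. Of 32851 mouse promoters of the same length, 72.3% held at least 1 E-box, with a median of 1, and 20.2% held CAGGTG. The ETS core GGAA was found on either strand 3 times in the promoters of Rag1 and Rag2 each, 2 times in that of Dntt and 5 times in that of Pax5, against a median of 3 and a match in 96.0% of all promoters. The Ikaros-type motif TGGGAA, which holds GGAA within it, occurred once in the Rag1 promoter and in 25.6% of all promoters. The letters TGANTCA (AP-1, 7.81% of all promoters), GAAANNGA (IRF, 21%) and CCCNNGGG (EBF, 13.7%) had no match in these 4 stretches. All motifs were searched on both strands, and these matches describe letters only.

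Of the 52 regions, 12 were open in pDC only, 14 in cDC1 only and 26 in both. The share open in pDC only was 23.1% (95% Wilson interval 13.7 to 36.1), against 11.0% of all 93615 regions. The share open in cDC1 only was 26.9% (16.8 to 40.3), against 45.5% of all regions. The share open in both was 50% (36.9 to 63.1), beside 43.5% of all regions. The windows thus held relatively more pDC-only and fewer cDC1-only regions than the lists as a whole. The intervals cover counting error only, neighbouring regions are not independent of each other, and the windows were picked with earlier results of these data known. With the cDC1 list limited to the length of the pDC list, 20 regions were open in pDC only and 8 in cDC1 only, while 24.8% and 26.0% of all regions were.

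**Figure D1:**
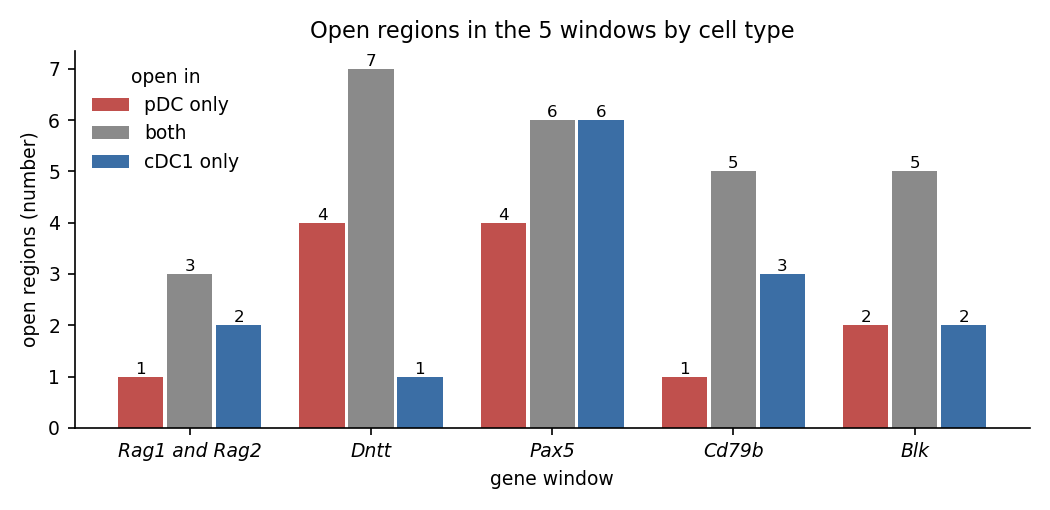
Number of open regions (vertical axis) in each gene window (horizontal axis), with bars for regions open in pDC only, in both cell types and in cDC1 only. The Dntt window has 4 pDC-only regions and 1 cDC1-only region, and the Cd79b window has 1 and 3.

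The counts varied between the windows, each with few regions, and no interval was computed for the class shares of a single window. The Dntt window had 4 pDC-only regions and 1 cDC1-only region among 12, the only window of the 5 with more of the pDC-only than of the cDC1-only kind when the whole lists were used. The Blk window had 2 and 2 among 9, the Rag window 1 and 2 among 6, the Pax5 window 4 and 6 among 16, and the Cd79b window 1 and 3 among 9. With the cDC1 list limited as above, pDC-only regions outnumbered cDC1-only regions by 6 in the Dntt window, by 4 in the Pax5 window and by 2 in the Blk window, and the numbers were equal in the Rag and Cd79b windows. The Dntt window was also the one with more intervals in pDC, 11 against 8 in cDC1, and with more open bases in pDC, 5367 against 3518 in cDC1, a ratio of 1.53. The Cd79b window stood at the other end, with 1788 open bases in pDC and 3674 in cDC1, a ratio of 0.487. The open bases numbered 2369 in pDC and 2888 in cDC1 in the Rag window, 4590 in pDC and 4915 in cDC1 in the Pax5 window, and 2579 in pDC and 3001 in cDC1 in the Blk window. Over the 5 windows the ratio of open bases was 0.928, against 0.612 over the whole lists.

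**Figure D2:**
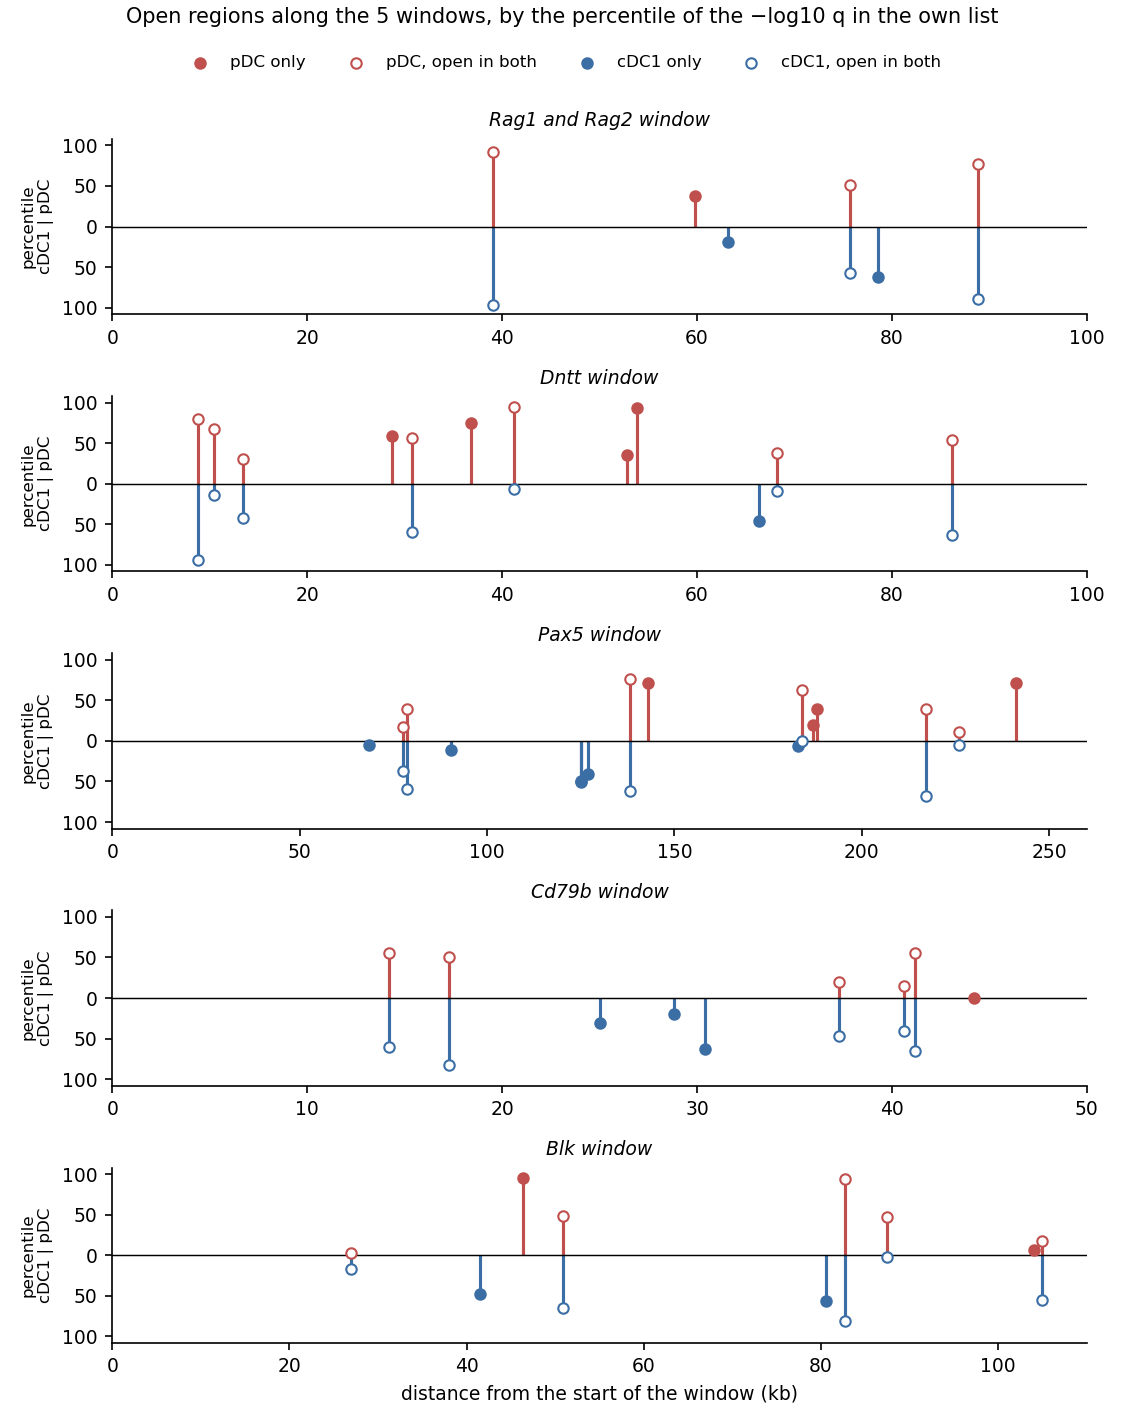
Each open region along the 5 windows, placed by its distance from the start of the window in kb, with the percentile of its −log10 q in its own list drawn upward for pDC and downward for cDC1. Filled points are regions open in that cell type only and open points are regions open in both, and the tallest filled pDC points stand in the Dntt and Blk windows at percentiles of 93.3 and 94.8.

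Strength was read as the −log10 q that MACS2 gave an interval, the largest where an interval had several summits, and as the percentile of that value in the list of the cell type. The 12 pDC-only regions had a median −log10 q of 13.9 and a range of 1.39 to 101, against a median of 8.43 over all 10254 pDC-only regions. The 14 cDC1-only regions had a median of 22.8 and a range of 3.59 to 54.4, against 13.5 over all 42640 cDC1-only regions. The 26 regions open in both had a median of 13.7 in pDC and 44.2 in cDC1, beside 16.1 in pDC and 82.7 in cDC1 over all 40721 regions of that kind. In 6 of the 26, the value was larger in pDC than in cDC1, against 8.99% of all regions open in both. These 6 lay in the Dntt (3), Pax5 (2) and Blk (1) windows, and none lay in the Rag or Cd79b window. All 6 were weak in cDC1, with a −log10 q of 1.81 to 6.03, at percentiles of 0.640 to 13.7 of the cDC1 list. At chr4:44725826-44726212 the values were close, 3.84 in pDC and 3.59 in cDC1. When each cell type's values were instead ranked as percentiles among the regions open in both, which sets aside the overall difference between the lists, 15 of the 26 were higher in pDC, against 49.6% of all such regions. By that ranking the windows as a group were near the background, with 6 of 7 higher in pDC in the Dntt window, 3 of 5 in the Blk window, 3 of 6 in the Pax5 window, 1 of 3 in the Rag window and 2 of 5 in the Cd79b window. Both counts were chosen after the values were seen.

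The Dntt window leaned most toward pDC by its regions and open bases. The region at chr19:41113558-41114126 was open in pDC only, with a −log10 q of 90.6 and a fold enrichment of 10.2. It ranked 139 of 10254 pDC-only regions by −log10 q. Its 2 footprints, 20 and 11 bp wide, carried 268 and 295 tags, the count of Tn5 cuts that HINT-ATAC lists with a footprint, and the median pDC footprint carried 100. A second pDC-only region at chr19:41096603-41097035 had a −log10 q of 36.2 and 3 footprints of 209 to 233 tags. A further one at chr19:41088515-41088865 had a −log10 q of 18.3 and 4 footprints of 53 to 134 tags. The remaining one had a −log10 q of 8.40. The single cDC1-only region of the window, chr19:41126188-41126560, had a −log10 q of 25.9 and 7 footprints of 61 to 144 tags, and the median cDC1 footprint carried 212.

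Regions of the Dntt window that were open in both cell types also spread widely. At chr19:41100947-41101486 the −log10 q was 97.5 in pDC and 4.01 in cDC1, at percentiles of 94.3 and 6.06 of the own lists. The highest footprint there had 426 tags in pDC and 79 tags in cDC1. At chr19:41070066-41070792 the −log10 q was 25.9 in pDC and 6.03 in cDC1, with 5 footprints of 162 to 179 tags in pDC and 1 of 137 tags in cDC1. The region at chr19:41068462-41069062 had the larger −log10 q in cDC1, 43.6 in pDC and 344 in cDC1. That is the usual direction, since only 8.99% of all regions open in both had the larger value in pDC. So the 2 strongest regions of the window in pDC, at 97.5 and 90.6, were weak or unlisted in cDC1, while its strongest cDC1 region was listed in both.

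The Blk window had the strongest pDC-only region of the 12. The region at chr14:63996088-63996617 had a −log10 q of 101 and a fold enrichment of 8.27, rank 77 of 10254. It held 2 footprints, 70 bp wide with 368 tags and 42 bp wide with 253 tags. The other pDC-only region, chr14:64054062-64054261, was among the weaker ones at a −log10 q of 3.01. The cDC1-only regions were chr14:64030371-64030765, at 40.6, and chr14:63991356-63991740, at 27.4. Of the regions open in both, chr14:64032304-64033003 had a −log10 q of 90.8 in pDC and 148 in cDC1, chr14:64000691-64001112 had 12.9 in pDC and 60.7 in cDC1, and chr14:64055021-64055521 had 4.71 in pDC and 37.9 in cDC1.

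In the Pax5 window, the widest, 5 of the 6 cDC1-only regions lay nearer its start than any pDC-only region. The pDC-only regions chr4:44740404-44740799 and chr4:44642871-44643334 had a −log10 q of 30.7 and 30.5, with 4 footprints of 32 to 124 tags and 8 footprints of 77 to 141 tags. The next, chr4:44687872-44688181, had a −log10 q of 9.48, and the weakest had 4.99. Of the 6 cDC1-only regions, the 3 strongest lay within 4 kb of each other, at chr4:44624293-44624763, chr4:44625274-44625664 and chr4:44627153-44627524, with a −log10 q of 31.8, 29.7 and 19.7. The other 3 were between 3.59 and 5.35. Among the regions open in both, chr4:44683918-44684726 had a −log10 q of 21.6 in pDC and 1.81 in cDC1. At chr4:44637242-44638104 it was 38.0 in pDC and 53.7 in cDC1, and at chr4:44717088-44717679 it was 9.27 in pDC and 73.8 in cDC1.

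The Rag window was led by regions open in both cell types. At chr2:101468732-101469438 the −log10 q was 85.6 in pDC and 401 in cDC1, at percentiles of 92.4 and 96.3. At chr2:101518286-101519255 it was 38.8 in pDC and 241 in cDC1, and at chr2:101505442-101505927 it was 13.8 in pDC and 42.7 in cDC1. The 1 pDC-only region, chr2:101489600-101489943, was modest, with a −log10 q of 8.90 and 4 footprints of 56 to 80 tags. The 2 cDC1-only regions were chr2:101508429-101508843, at a −log10 q of 54.4, and chr2:101493044-101493427, at 7.83. The 2 strongest regions of each cell type in this window were therefore the same, and the strongest region listed in 1 cell type alone was a cDC1 region.

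The Cd79b window, the narrowest, had the fewest open bases and footprints in pDC. As a share of its length it was not the least open in pDC, at 3.58%. That share was 5.37% in the Dntt window, 2.37% in the Rag window, 2.34% in the Blk window and 1.77% in the Pax5 window. The 1 pDC-only region of the Cd79b window, chr11:106194115-106194320, was near the end of the list at a −log10 q of 1.39, rank 10231 of 10254, with 1 footprint of 41 tags. The 3 cDC1-only regions were chr11:106180136-106180726, chr11:106174786-106175250 and chr11:106178635-106178981, with a −log10 q of 53.8, 12.5 and 7.90. The region at chr11:106167054-106167594 had 13.7 in pDC and 160 in cDC1. At chr11:106190951-106191441 the −log10 q was 16.6 in pDC and 63.2 in cDC1, and at chr11:106163985-106164370 it was 16.1 in pDC and 48.0 in cDC1. All 5 regions open in both had the larger −log10 q in cDC1, which is the usual direction, since only 8.99% of all such regions had the larger value in pDC.

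Tag counts gave a second measure at regions open in both. At 91319 pairs of pDC and cDC1 footprints that covered each other over at least 50% of the bases of both, the median ratio of pDC over cDC1 tags was 0.305, that is 3.28 times as many tags in cDC1. Ratios were divided by this median, which assumes that the listed values are unscaled counts and that the median pair does not differ. A pair was present in 17 of the 26 regions, against 31914 of all 40721 regions open in both. The scaled ratio was at least 2-fold higher in pDC in 2 of the 17, against 12.6% of all regions with a pair, and at least 2-fold higher in cDC1 in 0 of the 17, against 8.93%. The count toward pDC is near that background and is no result about the windows.

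**Figure D3:**
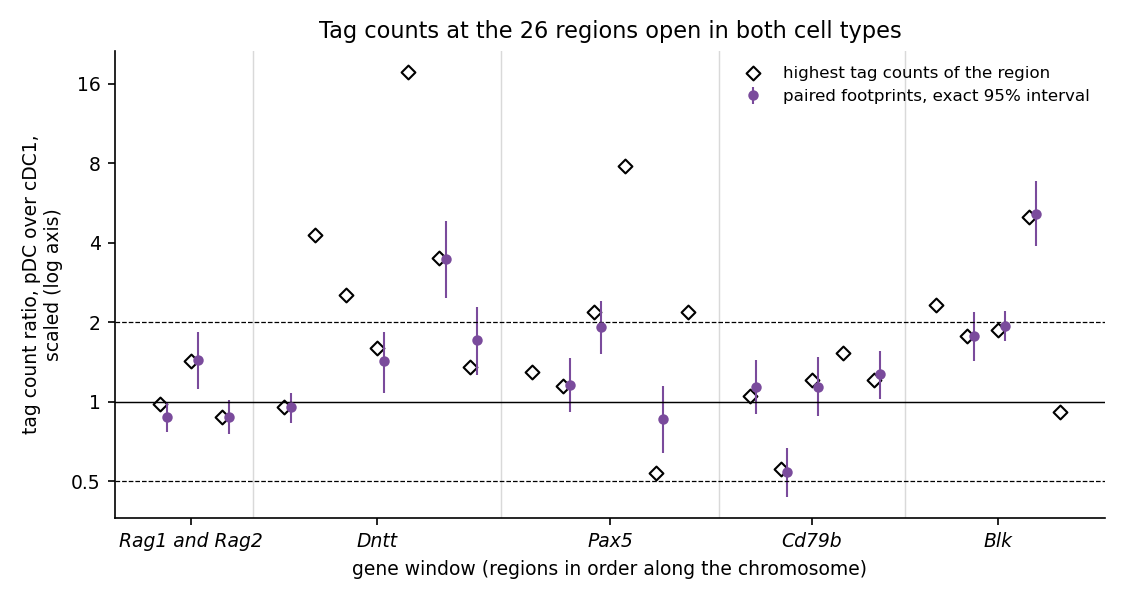
Scaled ratio of tag counts, pDC over cDC1, on a log axis for the 26 regions open in both cell types, in their order along each window. Diamonds are ratios of the highest tag counts of the region, circles are ratios of paired footprints with exact 95% intervals for counting error, dashed lines mark 2-fold, and the highest diamond, 17.7, is in the Dntt window.

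Both called regions are named for their ratio, as neither was among the up to 3 picked by percentile in its window and class. At both, the −log10 q was also larger in pDC than in cDC1. At chr14:64037214-64037678 in the Blk window the paired footprints had 135 tags in pDC and 86 tags in cDC1, a scaled ratio of 5.14 (exact 95% interval 3.89 to 6.82, counting error only). At chr19:41127974-41128384 in the Dntt window they had 76 tags in pDC and 72 tags in cDC1, a scaled ratio of 3.46 (2.47 to 4.84). Their −log10 q was 12.4 in pDC and 2.75 in cDC1 in the Blk window, and 8.98 in pDC and 4.90 in cDC1 in the Dntt window. Below the 2-fold limit, the region at chr14:64032304-64033003, the strongest in the Blk window of those open in both, had 368 tags in pDC and 621 tags in cDC1, a ratio of 1.94 (1.70 to 2.21). The region at chr4:44637242-44638104 in the Pax5 window had 122 tags in pDC and 209 tags in cDC1, a ratio of 1.91 (1.52 to 2.40). The lowest ratio was at chr11:106167054-106167594 in the Cd79b window, with 107 tags in pDC and 648 tags in cDC1, or 0.541 (0.437 to 0.665). The leading region of the Rag window, at chr2:101468732-101469438, had 297 tags in pDC and 1108 tags in cDC1, a ratio of 0.878 (0.770 to 0.999). The leading region of the Dntt window in cDC1, at chr19:41068462-41069062, had 293 tags in pDC and 1009 tags in cDC1, a ratio of 0.951 (0.832 to 1.08). Ratios of fold enrichment, pDC over cDC1, were also divided by their median over all regions open in both, 0.692. By that measure the leading region was at 0.906 in the Rag window and at 0.536 in the Dntt window. The measures also differed at chr14:64000691-64001112 in the Blk window, with 1.77 (1.42 to 2.18) by paired tags and 0.584 by fold enrichment.

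The 9 regions without a pair included the 2 with the largest ratios of highest tag counts. With the highest tag count of each cell type in place of a pair, 9 of 26 regions reached the 2-fold limit toward pDC and 0 toward cDC1, against 14.0% of all 39830 such regions toward pDC and 10.1% toward cDC1. Those 9 lay in the Dntt (4 of 7), Pax5 (3 of 6) and Blk (2 of 5) windows. The median ratio was 2.54 in the Dntt window, 1.87 in the Blk window, 1.74 in the Pax5 window, 1.21 in the Cd79b window and 0.979 in the Rag window, against 1.01 over all such regions. The largest ratios were 17.7 at chr19:41100947-41101486, 7.82 at chr4:44683918-44684726 and 5.02 at chr14:64037214-64037678. By fold enrichment, scaled as above, the ratios at these regions were smaller, 4.90, 2.77 and 2.42 in that order. Their −log10 q in cDC1 was low, at 4.01, 1.81 and 2.75. The smallest ratios of highest tag counts were 0.535 at chr4:44717088-44717679 and 0.556 at chr11:106167054-106167594, with 0.707 and 0.580 by fold enrichment. A highest count need not come from the same bases in both cell types, so it compares regions and not sites.

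For a region open in both, the summits with the largest −log10 q in each list were compared. They lay within 50 bp of each other in 19 of 26 regions, against 70.1% of all 39830 such regions with footprints. The median distance was 30.5 bp in the windows and 29.0 bp over all those regions. In the Dntt window 2 of 7 were within 50 bp and the median distance was 79.0 bp. The largest distance there, 381 bp, was at chr19:41090404-41091196, which had 2 summits in each list, so the strongest need not be the matching ones. In the Rag window 3 of 3 were within 50 bp, in the Blk window 5 of 5, in the Pax5 window 5 of 6 and in the Cd79b window 4 of 5.

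Footprints, short stretches of fewer cuts inside an open region that mark a candidate bound site, numbered 58 in pDC and 43 in cDC1 in the Dntt window, a ratio of 1.35. They numbered 25 in pDC and 54 in cDC1 in the Cd79b window, a ratio of 0.463. In the Rag window there were 38 in pDC and 40 in cDC1, in the Pax5 window 47 in pDC and 66 in cDC1, and in the Blk window 31 in pDC and 38 in cDC1. Over the 5 windows the ratio was 0.826, against 0.609 over the whole lists. The median tag count was 97 in pDC and 186 in cDC1, beside 100 in pDC and 212 in cDC1 in the whole lists.

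A footprint was counted as shared where a single footprint of the other cell type covered at least 50% of its bases. In the windows 59 of 199 pDC footprints were shared, 29.6% (95% Wilson interval 23.7 to 36.3), against 40.7% of all pDC footprints. Of the cDC1 footprints 76 of 241 were shared, 31.5% (26.0 to 37.7), against 26.9% of all cDC1 footprints. The shared pDC footprints were 9 of 58 in the Dntt window, 15.5% (8.38 to 26.9), and 8 of 47 in the Pax5 window, 17.0%. They were 12 of 31 in the Blk window, 38.7%, 18 of 38 in the Rag window, 47.4%, and 12 of 25 in the Cd79b window, 48.0%. Footprints in regions open in pDC only cannot be shared, and those of 1 interval are not independent, so these shares are a description. Of the cDC1 footprints, 16 of 43 in the Dntt window (37.2%), 16 of 66 in the Pax5 window (24.2%), 12 of 38 in the Blk window (31.6%), 18 of 40 in the Rag window (45%) and 14 of 54 in the Cd79b window (25.9%) were shared. Regions open in pDC only held 44 of the 199 pDC footprints, against 15.8% of all pDC footprints, and regions open in cDC1 only held 69 of the 241 cDC1 footprints, against 40.3% of all cDC1 footprints.

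**Figure D4:**
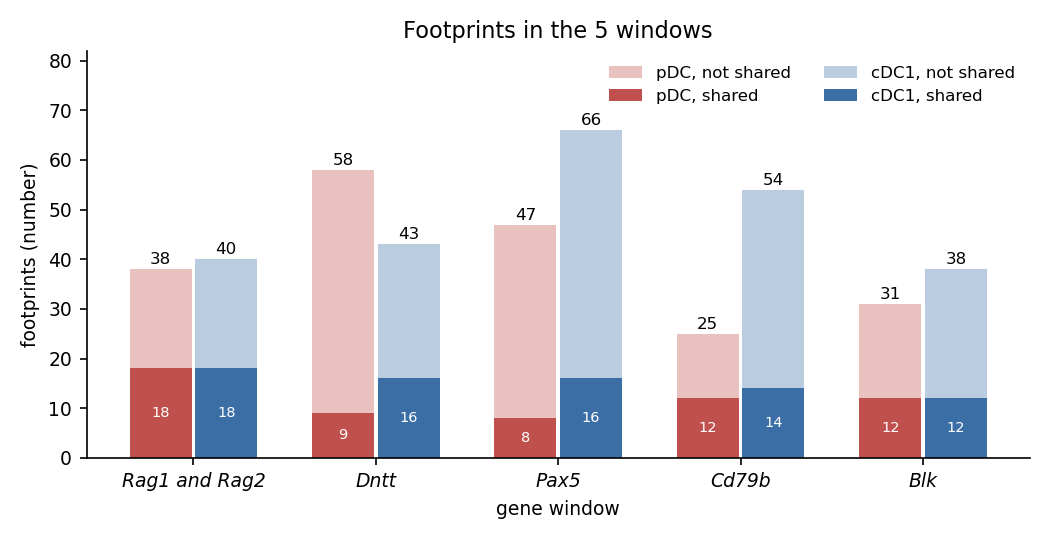
Number of footprints (vertical axis) in each gene window (horizontal axis), pDC left of cDC1, with the part shared with the other cell type in the darker shade. In the Dntt window 9 of 58 pDC footprints and 16 of 43 cDC1 footprints are shared.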

How the data were processed

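Omni-ATAC-seq was measured in 2 pDC and 2 cDC1 samples, and the labels leave unsaid whether the replicates share a culture or animal. The authors used Trim Galore on the reads, then Bowtie2 against mm9 and SAMtools, called peaks with MACS2 and called footprints with HINT-ATAC. They merged the replicates before footprinting, and the paper leaves unsaid whether peaks were called before or after this. The paper gives a filter of peaks at a q-value above 10. The lists used here reach down to a −log10 q of 1.305 in pDC and 1.302 in cDC1. Tool versions were not given in the sources used here. Each deposited peak list holds a score, a fold enrichment (a ratio of signal over background), a −log10 p (not used) and a −log10 q per summit, and the offset of the summit. The deposited footprint lists give a tag count per footprint, read here as an unscaled count because every value was whole, and the width of the counting stretch was not stated. The cDC1 lists are longer, and the median −log10 q was 13.5 in pDC and 30.4 in cDC1.

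Peak lines that differed in summit alone made 1 interval, and intervals of both lists that overlapped by at least 1 bp were joined into regions. Shares have 95% Wilson intervals and tag ratios have exact 95% intervals. Both cover counting error only, since the replicates were merged. The tag ratio intervals may also be too narrow, since reads are PCR products without molecular identifiers and both ends of a fragment may be counted. No p-value was computed. Named singly are, in each window and class, the up to 3 regions with the largest −log10 q (for regions open in both, the larger of the 2 percentiles), every region of a window with at most 6, and the 2 regions called by tag ratio. The windows, members and lists were chosen with earlier results of these data known. The motif letters, the marker list and the alternatives, given at the end with their effect, were fixed with them.

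The reference at hand was GRCm38.p6 and not mm9, and positions in the lists pass the end of 8 of 21 of its chromosomes. No coordinates were converted and no sequence was read under an interval. Marker genes of cell types, other B lymphoid genes and motifs in peaks were planned but not analysed here. Python 3.11.15, numpy 2.4.6, pandas 2.3.3, scipy 1.17.1 and matplotlib 3.10.9 were used, and the steps were tested on simulated data.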

Additional observations from a re-analysis of the deposited data

How the results depend on the processing

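No paired analysis was possible because both replicates of a cell type were merged by the authors, and for the same reason no replicate could be left out. Of 34 values for the 5 windows together under the alternatives, 19 stayed within the limits set and 15 moved. Where intervals needed a −log10 q of 10, 10 regions were open in pDC only, 16 in cDC1 only and 12 in both, against 8.34%, 55.3% and 36.3% of all regions. Where they needed 50, the counts were 3, 10 and 2, against 3.78%, 73.2% and 23.0%. With the cDC1 list limited to the length of the pDC list, 20 regions were open in pDC only and 8 in cDC1 only, while the shares over all regions became 24.8% and 26.0%. The Pax5 window then had 4 more pDC-only than cDC1-only regions, against 2 fewer with the whole list, the Blk window had 2 more, against equal numbers, and 42.4% of cDC1 footprints were shared. With the windows widened by 50 kb on both sides, 15 regions were open in pDC only, 26 in cDC1 only and 44 in both. The shares of all regions were 11.0%, 45.5% and 43.5%. Of the pDC footprints 37.5% were then shared, against 40.7% of all pDC footprints. With an overlap of at least 1 bp, 42.2% of pDC footprints and 39.4% of cDC1 footprints were shared. Shares over all footprints were not computed with this overlap or with the limited cDC1 list. The values of 42.2%, 39.4% and 42.4% therefore cannot be set beside the shares over all footprints given above. Of the 26 regions open in both, 9 were at least 2-fold higher in pDC by the highest tag counts and 5 by fold enrichment, against 14.0% and 6.34% of all such regions, where the paired ratio gave 2 of 17. At a limit of 1.5-fold, 6 were higher in pDC and 1 in cDC1, against 22.5% and 18.2% of all regions with a pair. Wider windows can only add regions, a 1.5-fold limit can only add calls and an overlap of 1 bp can only add shared footprints. The tally of 19 and 15 makes no allowance for this. The cause of the other moves was not tested. In the Dntt window the pDC-only regions exceeded the cDC1-only regions by 3, and by 0 to 6 under the alternatives, with 0 at a −log10 q of at least 50.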
